A study of Mus musculus with 6 samples.

Results

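Complex I of the mitochondrial respiratory chain is built from subunits encoded by nuclear genes and by the mitochondrial genome. The nuclear-encoded subunit genes were described here in whole mouse testis with and without KIFC1. Members were the rows whose Ensembl identifier maps in GENCODE release M21 to a protein-coding symbol Ndufa, Ndufb, Ndufc, Ndufs or Ndufv followed by a digit, together with Ndufab1. Assembly factors, whose symbols begin with Ndufaf, were left out of the membership. These rules gave 38 genes of the 51826 rows of each count table, and all 38 passed the filter on low counts. The gene family was picked after its transcripts were seen to be lower in the knockout, so its differences between genotypes are given as a description, and no test of them supports a statement.

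RNA was sequenced in bulk from whole testis of C57BL/6J mice, 8 weeks old, in 3 wild-type samples and 3 KIFC1 knockout samples. KIFC1 is a minus-end-directed kinesin of the kinesin-14 family that acts on spindle poles and in spermatid shaping. The labels used here do not say how the knockout was made, in which cells it acts, or whether each sample is a different animal. P-values therefore measure only how far these samples spread, and that spread may be technical.

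Complex I, NADH:ubiquinone oxidoreductase, takes electrons from NADH, passes them along a flavin and a chain of iron-sulfur clusters to ubiquinone, and pumps protons across the inner mitochondrial membrane. Its L shape has a matrix arm, which holds the electron path, and a membrane arm, which holds the proton channels and contains all subunits made in the mitochondrion. The core subunits, shared with bacteria, carry out the chemistry, and the supernumerary subunits surround them and are needed for assembly and stability. In the testis, spermatocytes and early spermatids depend on respiration, and sperm carry their mitochondria in a sheath around the midpiece.

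Library totals ran from 29274603 to 38703606 counts, and levels are given in CPM, the count over the TMM-scaled library size times 1000000. On library totals before TMM scaling, a count of 3 stood for 0.0775 to 0.102 CPM, a floor for counting error only. Members had 187 to 9173 counts in each library. Kifc1 stood at 15.5, 16.1 and 14.7 CPM in the wild-type libraries and at 0.326, 0.737 and 0.282 CPM in the knockout libraries (log2 fold change -5.09, SE 0.35, edgeR adjusted p = 0.00378), so the labels matched the targeted transcript. Genes of the mitochondrial genome took 0.661%, 0.912% and 0.935% of counts in wild type and 5.74%, 1.54% and 4.29% in knockout. Elongating spermatid markers, led by protamines, summed to 21616 to 23396 CPM in wild type and 16933 to 26263 CPM in knockout, with 1 of 8 higher and 2 of 8 lower past the test. Over all genes tested, 3.11% were called higher and 5.12% called lower. Round spermatid markers summed to 1509 to 1838 CPM in wild type and 1526 to 2215 CPM in knockout, with 1 of 8 higher (median log2 fold change 0.50), and pachytene spermatocyte markers to 2712 to 2919 and 2601 to 3138 CPM, with 2 of 8 higher and 1 lower. The 8 Sertoli cell markers, of which 7 were above 0 and none passed the test (2 with DESeq2), summed to 854 to 1202 CPM in wild type and 1142 to 1738 CPM in knockout. Leydig cell markers summed to 597 to 1299 and 973 to 1509 CPM, with 5 of 6 above 0 and none past the test (2 with DESeq2). Of 3 tested blood markers all were below 0 and 1 passed the test, with sums of 47.3 to 84.4 CPM in wild type and 29.3 to 47.0 CPM in knockout. Of 4 epididymal markers, 3 were at 0 in every library. Spermatogonial markers had a median log2 fold change of 0.07, with 1 of 8 lower past the test. Peritubular myoid (median 0.19), macrophage (0.04) and endothelial markers (0.46) had none past the test. The part of cell composition in the values below was not tested, and in whole-tissue RNA fewer cells of a type and less RNA per cell cannot be told apart.

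Most complex I subunit transcripts stood lower in the knockout testes. Summed over the 38 members, they reached 3075, 2492 and 2140 CPM in wild-type replicates 1, 2 and 3, and 1616, 1830 and 1944 CPM in the knockout replicates. The sums of the groups did not overlap, and the wild-type replicates differed more among themselves than the knockout replicates did (2569 ± 472 and 1796 ± 167 CPM, SD, n = 3 each). In the fit, 33 of 38 members were below 0, against 50.7% of all 21518 genes tested, and their median log2 fold change was -0.56, against -0.01 over all genes tested. Every wild-type library was above every knockout library for 21 of 38 members, a pattern that 18.1% of all genes tested showed. No member had all knockout libraries above all wild-type libraries, a pattern found in 14.6% of all genes. The fit placed 11 members below the adjusted threshold of 0.05, all lower, beside 5.12% of all genes called lower and 3.11% called higher. Without the filter on low counts it placed 6 there, beside 1.85% of all genes, and DESeq2's Wald test placed 13 there, beside 9.7%. Because this contrast chose the members, nothing is read from these counts.

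**Figure D1:**
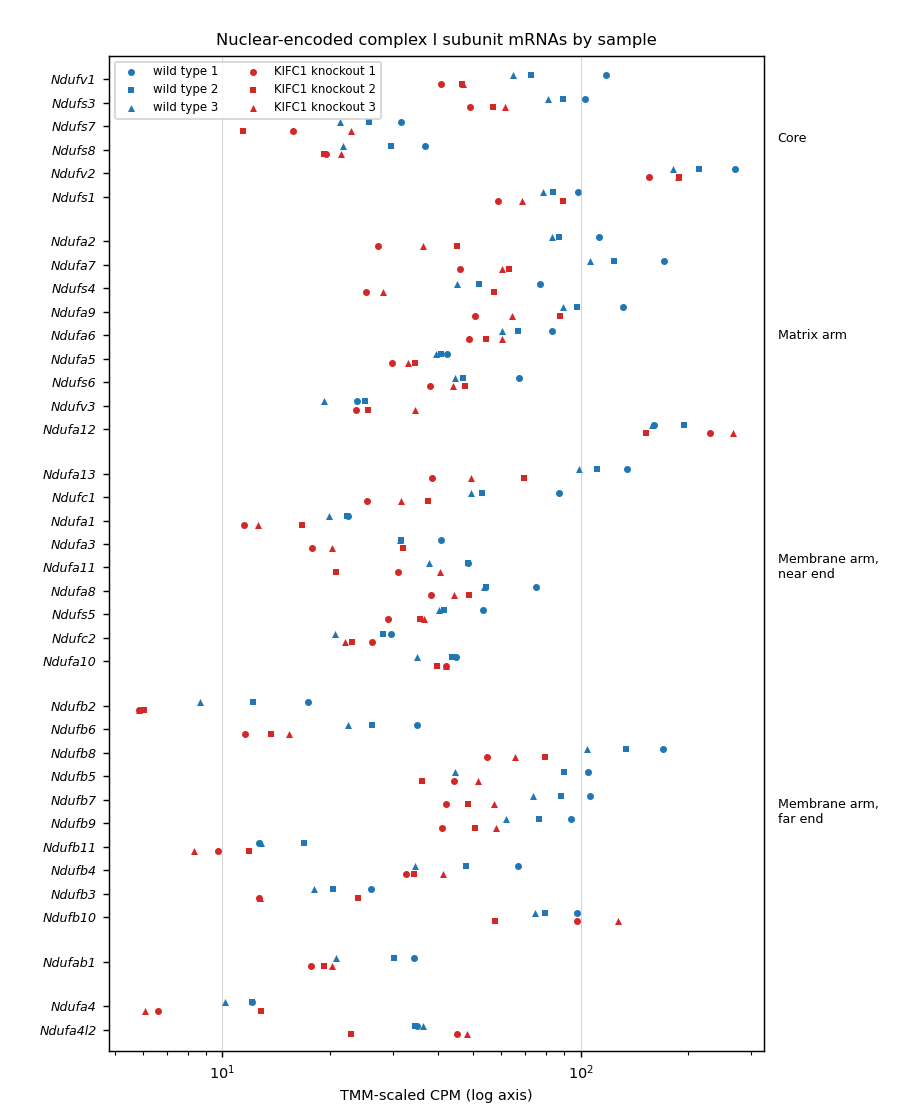
CPM of the members plotted in each of the 6 libraries, on a log axis, grouped by their place in the complex. Blue and red points are wild-type and knockout libraries, with a marker shape for each replicate. For Ndufa2, Ndufa7 and Ndufb8 every knockout point lies below every wild-type point, and for Ndufa12, Ndufv3, Ndufb10 and Ndufa4l2 the knockout mean is the higher one.

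The 7 nuclear core subunits line the electron path, and all 7 were below 0 (median log2 fold change -0.65). Ndufv1, the flavin-bearing subunit that takes electrons from NADH, lies at chr19:4007384-4012806 on the minus strand. It had 118, 72.8 and 64.7 CPM in wild type and 40.8, 46.8 and 47.0 CPM in knockout (-0.92, SE 0.23). Every knockout library was below the lowest wild-type library, and wild-type replicate 1 was well above the other two. Ndufv2, its partner with an iron-sulfur cluster, had 269, 215 and 181 CPM in wild type and 155, 189 and 187 CPM in knockout (-0.32, SE 0.18). Here the groups overlapped, since wild-type replicate 3 fell among the knockout libraries. Ndufs1, the largest core subunit and the carrier of several clusters, had 98.3, 83.8 and 78.7 CPM in wild type and 58.9, 89.5 and 68.7 CPM in knockout (-0.26, SE 0.18). Knockout replicate 2 was above 2 of the wild-type libraries. Its level is uncertain because the gene overlaps Eef1b2.

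Ndufs7, which carries the last cluster of the chain and lies near the site where ubiquinone is reduced, had 31.5, 25.6 and 21.3 CPM in wild type and 15.8, 11.5 and 22.8 CPM in knockout (-0.65, SE 0.27). The groups overlapped through knockout replicate 3. Ndufs3, a structural subunit of the matrix arm that overlaps Kbtbd4, had 103, 89.2 and 81.1 CPM in wild type and 49.2, 56.8 and 61.4 CPM in knockout (-0.71, SE 0.16). Ndufs8, with a pair of clusters, had 36.7, 29.6 and 21.8 CPM in wild type and 19.4, 19.3 and 21.5 CPM in knockout (-0.55, SE 0.21). Both stood apart by group, Ndufs8 by a small gap between wild-type replicate 3 and knockout replicate 3. Across the core, 4 of 7 members had knockout groups wholly below wild type, a pattern that 18.1% of all genes tested showed.

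The 9 supernumerary subunits of the matrix arm spread most, from the lowest member of the family to the highest (median -0.36). Ndufa2, a small thioredoxin-fold subunit, had 113, 87.3 and 83.3 CPM in wild type and 27.1, 45.1 and 36.3 CPM in knockout (-1.38, SE 0.22). Its knockout mean was 38.3% of its wild-type mean, the lowest share among the 38, and even the highest knockout library was far below the lowest wild-type library. Ndufa2 overlaps Tmco6, so its level is uncertain. Ndufa7 (chr17:33824572-33838317, plus strand), also a peripheral subunit of this arm, had 170, 124 and 106 CPM in wild type and 46.0, 63.1 and 60.5 CPM in knockout (-1.24, SE 0.21). Its groups were equally well separated, with a knockout mean at 42.3% of wild type, and it overlaps no other tested gene.

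Ndufa12 and Ndufv3 of the same arm stood at the other end. Ndufa12 (chr10:94198720-94221443, plus strand), which takes the place that the assembly factor Ndufaf2 holds before it, had 160, 194 and 158 CPM in wild type and 230, 152 and 267 CPM in knockout (0.34, SE 0.21). Knockout replicates 1 and 3 were above all wild-type libraries and knockout replicate 2 was below all of them. Ndufv3 (chr17:31520115-31531331, plus strand), a small subunit beside Ndufv1 and Ndufv2, had 23.7, 25.0 and 19.2 CPM in wild type and 23.7, 25.4 and 34.6 CPM in knockout (0.30, SE 0.20). Its groups overlapped. The other 5, which include Ndufs4, Ndufs6 and the NADPH-binding Ndufa9, ran from -0.66 for Ndufs4 to -0.30 for Ndufs6. Ndufs4 had 76.9, 52.0 and 45.2 CPM in wild type and 25.2, 57.2 and 28.1 CPM in knockout. As in Ndufa12, knockout replicate 2 departed from the other knockout libraries, here upward and into the wild-type range.

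In the part of the membrane arm next to the matrix arm, 8 of 9 members were below 0 (median -0.55). Ndufa13, also known as GRIM-19, is a membrane-spanning subunit that has been linked to cell death signalling. At chr8:69894180-69902558 on the minus strand, it had 135, 111 and 98.8 CPM in wild type and 38.4, 69.6 and 49.5 CPM in knockout (-1.13, SE 0.23). The groups were well apart, but the gene overlaps Tssk6 and Yjefn3 and its level is uncertain. Ndufc1, a small membrane subunit, had 86.8, 53.1 and 49.4 CPM in wild type and 25.4, 37.6 and 31.5 CPM in knockout, a mean at 49.9% of wild type. Again no knockout library reached the wild-type range. Ndufa10, a nucleoside-kinase-like subunit on the matrix face, had 44.8, 43.7 and 34.9 CPM in wild type and 42.0, 39.8 and 42.0 CPM in knockout. Its means were nearly equal (0.0043, SE 0.15), and all knockout libraries lay within the wild-type range. Ndufc2 was at -0.14, and Ndufa1, Ndufa3, Ndufa8, Ndufa11 and Ndufs5 lay between -0.67 and -0.42.

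At the far end of the membrane arm, where the Ndufb subunits surround the distal proton channels, 9 of 10 members were below 0 (median -0.75). Ndufb2 (chr6:39592574-39603382, plus strand) had 17.3, 12.1 and 8.68 CPM in wild type and 5.87, 6.04 and 5.85 CPM in knockout (-1.10, SE 0.26). The knockout libraries were almost equal while the wild-type libraries ranged widely, and Ndufb2 overlaps Braf. Ndufb8, often used as an antibody marker of assembled complex I, had 170, 134 and 105 CPM in wild type and 54.7, 79.4 and 65.8 CPM in knockout (-1.03, SE 0.21). Its groups did not overlap, and it overlaps no tested gene. Ndufb6, which overlaps Smim27, was at -1.04 (SE 0.21), Ndufb5 at -0.86 (SE 0.29) and Ndufb7, a twin-cysteine protein of the intermembrane space, at -0.86 (SE 0.19). Ndufb3, Ndufb4, Ndufb9 and Ndufb11 ran from -0.64 to -0.38. Because they too overlap a tested gene, the levels of Ndufb5, Ndufb11, Ndufa3, Ndufa9, Ndufa11 and Ndufs6 are uncertain.

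Ndufb10, likewise a disulfide-bonded subunit of the intermembrane space, was the exception at that end. At chr17:24722060-24724478 on the minus strand, it had 97.8, 79.7 and 74.4 CPM in wild type and 97.5, 57.7 and 128 CPM in knockout (0.17, SE 0.26). The knockout libraries spanned more than the whole wild-type range. Its knockout SD was 35.0 CPM around a mean of 94.2 CPM, and its wild-type SD 12.2 CPM around 84.0 CPM.

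The other 3 members have uses outside complex I or are placed elsewhere. Ndufab1, the mitochondrial acyl carrier protein, sits in complex I in both arms and also serves mitochondrial fatty acid synthesis and iron-sulfur cluster assembly. It had 34.3, 30.1 and 20.7 CPM in wild type and 17.7, 19.2 and 20.2 CPM in knockout (-0.58, SE 0.21), with groups that just failed to touch. Ndufa4, named as a complex I subunit but now assigned to complex IV, had 12.1, 12.1 and 10.2 CPM in wild type and 6.63, 12.8 and 6.10 CPM in knockout (-0.43, SE 0.29). Ndufa4l2, its hypoxia-inducible paralog (chr10:127514967-127517154, plus strand), had 35.0, 34.4 and 36.3 CPM in wild type and 45.3, 22.9 and 48.2 CPM in knockout (0.14, SE 0.26). In both, knockout replicate 2 lay on the opposite side of the wild-type range from the other knockout libraries. Ndufa4l2 overlaps Shmt2, so its level is uncertain.

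**Figure D2:**
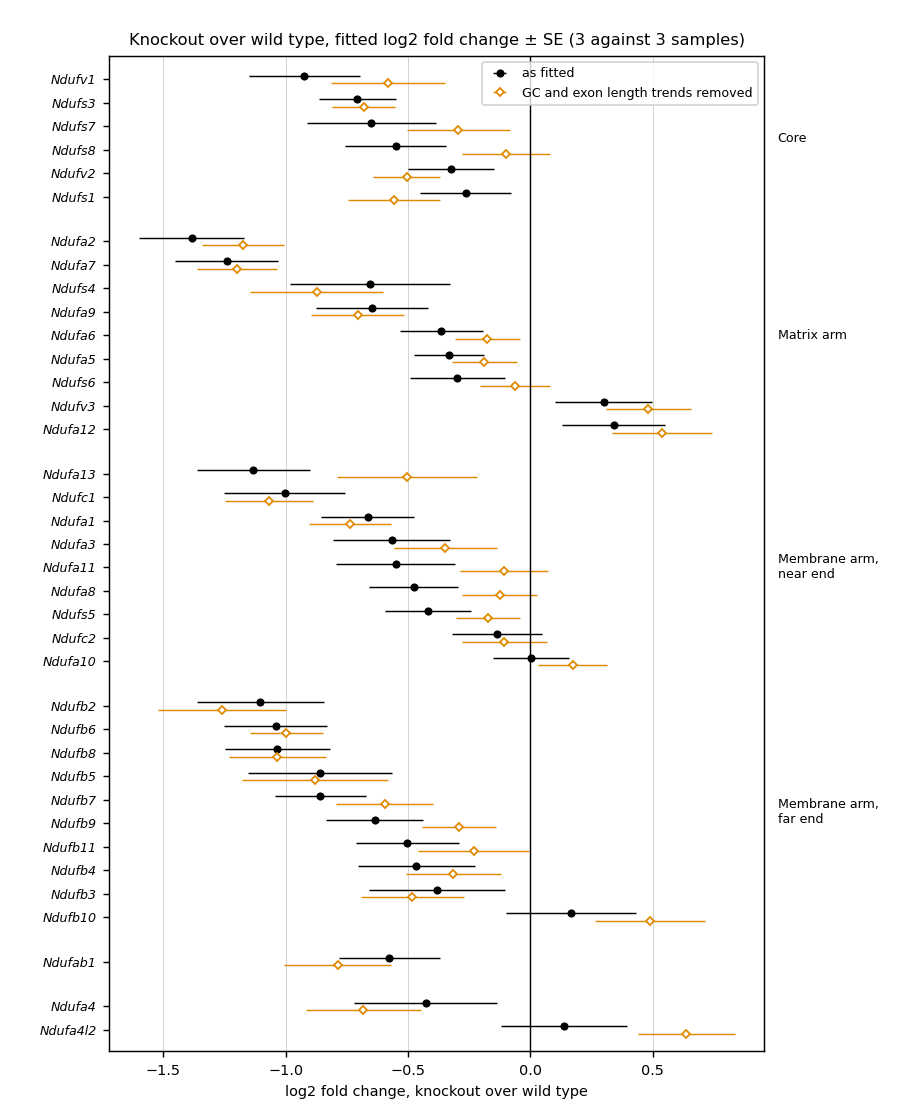
Fitted log2 fold change of the members plotted, knockout over wild type, with bars of 1 SE, and beside it the value after GC and length trends were removed. The values run from -1.38 for Ndufa2 to 0.34 for Ndufa12, and most are below 0 with either treatment.

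The levels of the members within wild-type testis come from libraries that also entered the contrast that chose them, so they too are a description. Divided by the kilobases of merged exon, their wild-type means ran over a 73.1-fold range around a median of 39.3 CPM per kb. Ndufa2 was highest, at 165 ± 27.8 CPM per kb (SD, n = 3, as for the levels that follow), ahead of Ndufa12 at 109 ± 13.0 and Ndufv2 at 103 ± 20.7 CPM per kb. At the low end were Ndufv3 at 7.10 ± 0.945, Ndufab1 at 4.12 ± 1.01 and Ndufb2 at 2.26 ± 0.773 CPM per kb. Along the order, 4 of 37 neighbouring levels were apart by more than their SDs. These gaps lay between Ndufa2 and Ndufa12, between Ndufs1 (10.7 ± 1.26 CPM per kb) and Ndufa4 (8.29 ± 0.811 CPM per kb), and at the last 2 steps, from Ndufv3 through Ndufab1 to Ndufb2. The remaining neighbours did not differ beyond their spread.

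That order leaned on which exons were counted as length. With the principal transcript of each gene in place of merged exons, an alternative added after the data were seen, the median became 58.8 CPM per kb. Ndufa7 then led at 253, followed by Ndufb8 at 201 and Ndufa2 at 165 CPM per kb, and Ndufb2 stayed lowest at 2.91 CPM per kb. For Ndufb2 the principal transcript is also the longest one, 4371 bases against 5628 of merged exon, so its place rests on a long length either way. Before division by length, Ndufb2 had a wild-type mean of 12.7 CPM, above Ndufa4 at 11.4 CPM. Across the 38 genes the orders correlated at a Spearman rho of 0.80, a description of genes measured in the same libraries.

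**Figure D3:**
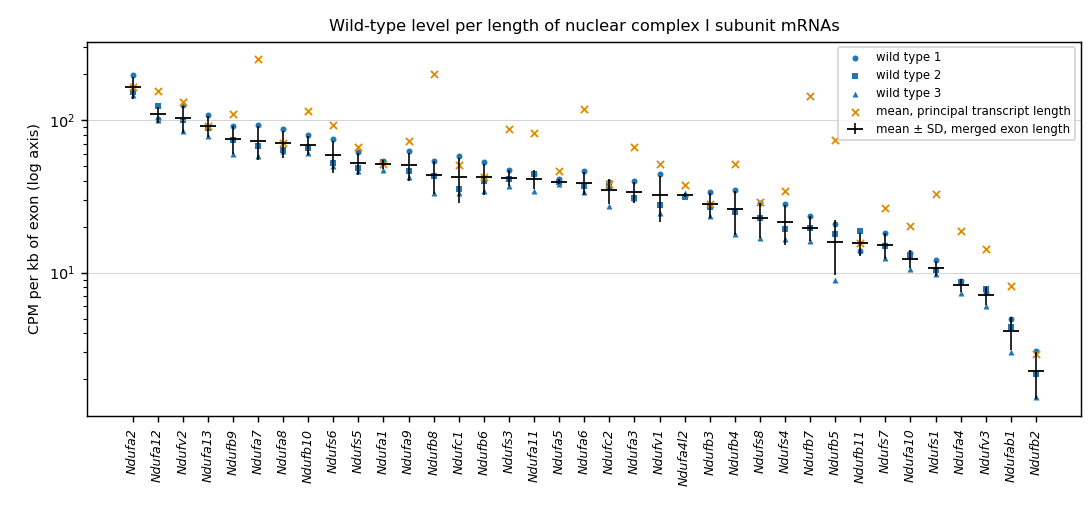
Wild-type level of the members plotted, in CPM per kb of merged exon, on a log axis: blue points are the 3 libraries, black dashes the mean with a bar of 1 SD, and orange crosses the mean per kb of the principal transcript. Ndufa2 leads at 165 CPM per kb and Ndufb2 is lowest at 2.26 CPM per kb, and most neighbours in the order share their range.

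Promoter sequences were examined because most members stood lower together. Genes of the respiratory chain are known targets of NRF1, a palindrome-binding regulator of nuclear genes for mitochondria. They are also known targets of YY1, a zinc-finger factor, and of ETS-family factors such as GABP. RefSeq promoter windows on GRCm38.p6, from 250 bases before to 50 after each annotated start, were found for 33 of 38 members, as 35 windows. The NRF1 motif was searched as GCGC and GCGC around a middle of A and any base, or of any base and T, the ETS motif as CCGGAAG and CTTCCGG, and the YY1 motif as AAGATGGC and GCCATCTT, which covers both strands. The NRF1 motif was in 22.9% of member windows and in 4.60% of all 32851 windows. For YY1 these shares were 20.0% and 2.75%, and for ETS 11.4% and 8.86%. The NRF1 share counts Ndufa5 under each of its overlapping windows, which hold the same site, and by gene 7 of 33 members matched. The shares over all windows take no account of GC content. A match is a run of letters and not a shown binding site.

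The NRF1 motif matched in 7 members. The sites below are those of 6 of them, printed 5′ to 3′ along the gene's strand with the motif in capitals. They show the GCGC on either side of the middle, shared by subunits of both arms. They lie at chr17:56717692-56717721 (plus strand, Ndufa11), chr6:24527697-24527726 (minus, Ndufa5), chr15:82354249-82354278 (minus, Ndufa6), chr2:36049349-36049378 (minus, Ndufa8), chr4:123718265-123718294 (minus, Ndufs5) and chr13:73328479-73328508 (minus, Ndufs6).
Ndufa11: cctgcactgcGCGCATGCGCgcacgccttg
Ndufa5: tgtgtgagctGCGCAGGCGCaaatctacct
Ndufa6: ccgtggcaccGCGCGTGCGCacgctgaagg
Ndufa8: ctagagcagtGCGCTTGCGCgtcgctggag
Ndufs5: gctgcttgctGCGCAGGCGCagacccgctg
Ndufs6: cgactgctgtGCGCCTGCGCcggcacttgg

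Ndufb4, a far-end membrane subunit, held 3 matches to the NRF1 motif within the 250 bases before its start (chr16:37654369-37654618, minus strand). The run is shown whole for the spacing of its matches, in capitals.
Ndufb4 upstream: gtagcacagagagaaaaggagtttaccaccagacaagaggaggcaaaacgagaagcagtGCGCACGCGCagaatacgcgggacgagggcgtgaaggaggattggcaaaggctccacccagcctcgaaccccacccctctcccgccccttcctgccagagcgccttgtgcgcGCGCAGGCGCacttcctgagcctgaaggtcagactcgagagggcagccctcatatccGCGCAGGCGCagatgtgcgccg

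The YY1 motif also matched in 7 members, always in the forward direction and at 23 to 39 bases after the start. The sites are printed for that shared place and direction, with the motif in capitals. The motif holds the letters ATG, with which coding sequences begin. Whether these matches lie at the start of translation, which would also give a shared place and direction, was not tested. They lie at chr7:3617385-3617412 (plus strand, Ndufa3), chr6:126849098-126849125 (minus, Ndufa9), chr19:44555393-44555414 (minus, Ndufb8), chr3:51408916-51408943 (minus, Ndufc1), chr13:114388045-114388069 (minus, Ndufs4), chr13:73328433-73328459 (minus, Ndufs6) and chr10:80249463-80249490 (plus, Ndufs7).
Ndufa3: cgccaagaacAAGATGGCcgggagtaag
Ndufa9: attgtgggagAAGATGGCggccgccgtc
Ndufb8: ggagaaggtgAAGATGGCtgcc
Ndufc1: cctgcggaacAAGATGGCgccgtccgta
Ndufs4: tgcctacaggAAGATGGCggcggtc
Ndufs6: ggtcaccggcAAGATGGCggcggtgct
Ndufs7: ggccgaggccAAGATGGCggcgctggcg

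Members with and without these motifs overlapped in their difference between genotypes. The 7 members with an NRF1 match ran from -0.55 to -0.30 in log2 fold change, inside the range of the 16 members with no match to any of the 3 motifs (-1.24 to 0.34). Those with a YY1 match, which include Ndufb8 and Ndufc1, ran from -1.03 to -0.30. The 4 members with an ETS match, Ndufb6, Ndufb7, Ndufs3 and Ndufs8, ran from -1.04 to -0.55. These ranges are descriptions, since the same contrast chose the members.

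Transcripts of the members were mostly short, which bears on the measurement because the libraries differed in how counts followed GC content and length. Their median merged exon length was 1532 bases (419 to 8086) against 3239 over all genes tested, and their median exon GC content 51.0% against 48.8%. The trends fitted to all well-expressed genes by themselves gave a median of -0.18 for members, from -0.57 to 0.29. Ndufa13, at 60.4% GC, and Ndufa4l2, at 59.5% GC, moved most when these trends were removed. Ndufa13 went from -1.13 to -0.50 and Ndufa4l2 from 0.14 to 0.64.

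With the trends removed, the median over members was -0.49 and 33 of 38 were still below 0, against 49.3% of all genes. The trends were fitted over many genes and need not hold for the members. Among the 38, fold change and exon GC content correlated at a Spearman rho of 0.03 before removal and 0.56 after it. The shifts below therefore follow GC content, and which scale is nearer to the RNA levels was not tested. No member was then called, beside 0.0604% of all genes called lower. Groups did not overlap for 18 of 38 members with knockout lower, against 14.5% of all genes, and for 3 with knockout higher (13.0% of all genes), which were Ndufa10, Ndufa4l2 and Ndufv3. Ndufa7 (-1.20), Ndufa2 (-1.17), Ndufb2 (-1.26) and Ndufb8 (-1.03) remained near their values before removal. Among core subunits, Ndufs8 went to -0.10, with 30.1, 25.4 and 19.6 trend-free CPM in wild type and 23.0, 25.0 and 22.2 in knockout, and its groups then overlapped. The groups of Ndufv1 (-0.58) and Ndufa13 also overlapped once the trends were removed, in both through knockout replicate 2. Ndufs7 stood at -0.29, and Ndufv2 (-0.50) and Ndufs1 (-0.56) were lower than before removal, with groups that no longer overlapped. Core subunits had a median of -0.50 and far-end membrane subunits of -0.54, while the near membrane arm was at -0.17 and the matrix arm supernumerary subunits at -0.19.

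**Figure D4:**
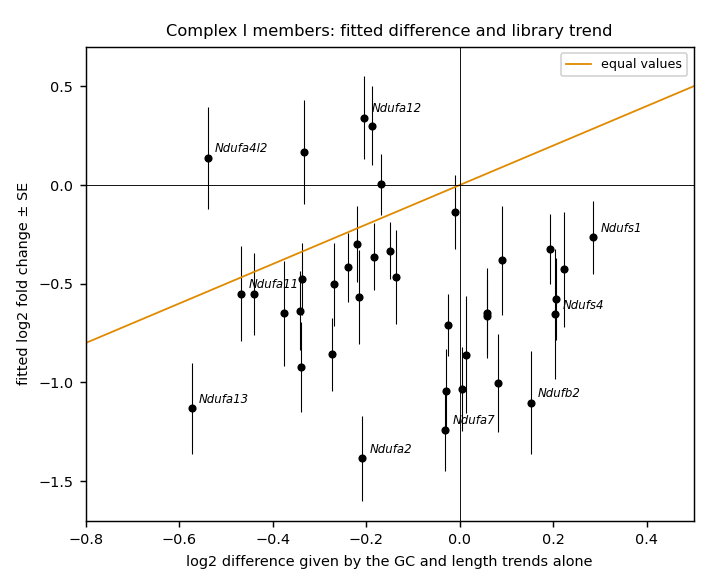
Fitted log2 fold change of the members plotted, with a bar of 1 SE (y axis) against the log2 difference that GC and length trends alone give it (x axis), with a line where both are equal. The trends alone run from -0.57, for Ndufa13, to 0.29, for Ndufs1, and most members lie below the line.

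The members also moved together between libraries of the same genotype. Wild-type replicate 1 was the highest wild-type library for 34 of 38 members, against 39.6% of all genes tested, and wild-type replicate 3 was the lowest for 36 of 38, against 36.1%. Removing the GC and length trends left 29 and 25 of 38. Among knockout libraries, replicate 1 was the lowest for 26 of 38, against 31.1% of all genes. As medians of log2 deviation from the wild-type mean, members stood at 0.28, -0.03 and -0.23 in wild type and at -0.73, -0.51 and -0.50 in knockout. With the trends removed these were 0.16, -0.02 and -0.15 in wild type and -0.65, -0.26 and -0.54 in knockout. The knockout medians lay below every wild-type median on either scale. Without wild-type replicate 1 the median log2 fold change of the members was -0.40.

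Counts of called members moved further with single libraries. The fit called 0 members without wild-type replicate 1 (0.0135% of all genes called lower), wild-type replicate 2 (0.00452%), knockout replicate 1 (0.00454%) or knockout replicate 3 (1.09%). Without wild-type replicate 3 it called 6 lower, beside 1.44% of all genes. Without knockout replicate 2 it called 16 lower, beside 7.69% of all genes, and Ndufa12 higher, beside 6.62%. With the trends removed, the fit without knockout replicate 2 called 16 lower (6.28% of all genes) and 3 higher (6.97%), Ndufa4l2, Ndufa12 and Ndufb10. Each other omission then called 0 members, and at most 0.00902% of all genes lower. The same omissions moved the calls over all genes from 1770 to between 1 and 3149.

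Transcripts of the 7 complex I subunits made in the mitochondrion stood on the other side. These encode the proton-pumping core of the membrane arm. All 7 rose past the test (median log2 fold change 3.25), beside 3.11% of all genes called higher. Summed, they had 1400, 2182 and 2333 CPM in wild type and 24820, 3951 and 18579 CPM in knockout. Every knockout library was above every wild-type library, and knockout replicate 2 lay far nearer to wild type than the other knockout libraries. The ratio of mitochondrial-encoded to nuclear-encoded sums was 0.455, 0.875 and 1.09 in wild type and 15.4, 2.16 and 9.56 in knockout. mt-Nd6, the only one encoded on the light strand, had 48.0, 75.0 and 90.0 CPM in wild type and 1316, 178 and 962 CPM in knockout (3.53, SE 0.63, edgeR adjusted p = 0.0196). mt-Nd2 (3.37), mt-Nd5 (3.32) and mt-Nd4 (2.80), which form the proton channels, also rose, and mt-Nd3, named for having the smallest rise, stood at 1.12 (SE 0.26, edgeR adjusted p = 0.0366). mt-Nd5 and mt-Nd6 overlap each other, as do mt-Nd4 and mt-Nd4l, and mt-Nd2 overlaps mt-Tw, so reads in the shared stretches cannot be assigned. With GC and length trends removed, the median was 2.79 and 0 of 7 were called, beside 4 of all 21518 genes called higher. mt-Nd3 then stood at 0.28 (edgeR adjusted p = 0.58), and mt-Nd6 at 2.79 (edgeR adjusted p = 0.0808). The fit called all 7 without knockout replicate 2, beside 6.62% of all genes called higher. It called 0 without any other single library, where 1 to 425 genes were called over all genes. Medians over these omissions ran from 2.73 to 3.75. Without the expression filter 6 of 7 were called, and with the replicate block 0, beside 1010 and 21 calls over all genes. Within wild type the order was the reverse of the nuclear one. Replicate 1 was lowest for 6 of 7, against 41.6% of all genes tested, and replicate 3 highest for 5 of 7, against 35.1%.

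**Figure D5:**
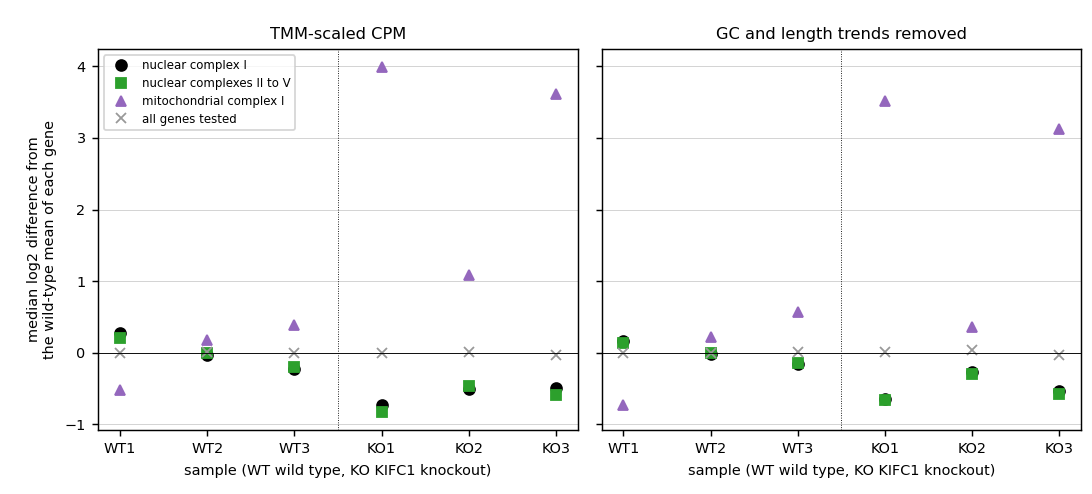
Median log2 deviation from the wild-type mean in each library for the 38 nuclear members (black circles), nuclear genes of complexes II to V (green squares), the 7 mitochondrial-encoded subunits (purple triangles) and all genes tested (grey crosses), from CPM on the left and with GC and length trends removed on the right. The green squares include the assembly factors of complex II. On the left the members run from 0.28 to -0.23 in wild type and from -0.73 to -0.50 in knockout. The mitochondrial-encoded subunits reach 3.99, 1.09 and 3.61 in knockout.

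Assembly factors, which build complex I and leave it, lay outside the rule, but their list was written with earlier results of these data known. Of 19 tested, 3 fell and 0 rose (median -0.33), beside 5.12% of all genes called lower and 3.11% called higher. Ndufaf3, an early factor that joins the ubiquinone module to the membrane, had 397, 291 and 264 CPM in wild type and 104, 141 and 126 CPM in knockout (-1.36, SE 0.20, edgeR adjusted p = 0.0161). Ndufaf8, which acts on Ndufs7 with Ndufaf5, had 27.5, 24.5 and 21.6 CPM in wild type and 6.55, 9.95 and 8.67 CPM in knockout (-1.55, SE 0.21, adjusted p = 0.0161). Dmac1, a factor for the distal membrane arm where the Ndufb subunits sit, had 32.4, 25.9 and 22.0 CPM in wild type and 13.1, 13.3 and 14.0 CPM in knockout (-0.99, SE 0.19, adjusted p = 0.0214). None of the 3 had overlapping groups. Of the 19, 6 had every knockout library below every wild-type library, beside 18.1% of all genes tested. Ndufaf2 alone had every knockout library above every wild-type library (0.54, SE 0.21, not called), beside 14.6% of all genes. Ndufaf3 shares part of its span with Impdh2 and Ndufaf2 with Smim15, so their levels are uncertain. The count of 3 became 0 without wild-type replicate 1 (0.0135% of all genes called lower), wild-type replicate 2 (0.00452%) or knockout replicate 1 (0.00454%). It was 2 without knockout replicate 3 (1.09%) and 5 without knockout replicate 2 (7.69%). With the trends removed 0 of 19 were called, and Ndufaf8 stood at -1.15 (adjusted p = 0.0621) and Ndufaf3 at -0.99 (adjusted p = 0.067).

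The nuclear genes of the other respiratory complexes had medians near that of the complex I members. Of 46 tested genes of complexes II to V, assembly factors of complex II among them, 17 fell and 1 rose (median -0.67). Over all genes, 8.23% were called in either direction. Complex III, which takes electrons from ubiquinol, had 6 of 9 lower, among them Cyc1 (-1.25), Uqcrq (-1.35) and Uqcr11 (-1.21), while Uqcrb rose (0.73, SE 0.16, edgeR adjusted p = 0.0315). Complex IV, the oxidase, had 4 of 14 lower, including Cox5a (-0.97, SE 0.14, adjusted p = 0.0161) the testis form Cox6b2 (-0.74), Cox5b (-0.75) and Cox4i1 (-0.95). Complex V, the ATP synthase, had 5 of 15 lower, among them Atp5g1 (-0.73) and Atp5g2 (-1.12) of the rotating ring, the catalytic Atp5b (-0.65) and Atp5j (-0.76). Complex II is entirely nuclear-encoded, and its list joins the subunits Sdha, Sdhb, Sdhc and Sdhd with the assembly factors Sdhaf1 to Sdhaf4. Of these 8 genes, 2 were lower, the membrane anchors Sdhc (-0.71) and Sdhd (-0.74). Levels of Uqcrb, Cox5a, Cox4i1 and Atp5j are uncertain because each overlaps another tested gene.

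The calls in these lists also moved with single libraries. Over the 72 tested genes of all these lists, the fit made 28 calls, beside 8.23% of all genes called. Without wild-type replicate 1, wild-type replicate 2 or knockout replicate 1 it made 0, beside 5, 1 and 1 calls over all genes. Without wild-type replicate 3 it made 8 (425 over all genes) and without knockout replicate 3 it made 7 (327 over all genes). Without knockout replicate 2 it made 36 (3149 over all genes). With the GC and length trends removed the single call was Cox5a (-1.20, edgeR adjusted p = 0.0341), beside 17 calls over all genes. Without those trends Cox6b2 stood at -0.26, Cyc1 at -0.76, Uqcr11 at -0.70, Atp5g2 at -0.70, Cox4i1 at -0.62 and Cox5b at -0.50, each at least 1.5 times nearer to 0 than before. Of the other genes named from complexes II to V, Uqcrq (-1.21), Sdhc (-0.68), Sdhd (-0.63) and Uqcrb (0.54) moved less toward 0. Atp5b (-0.77), Atp5g1 (-0.80) and Atp5j (-0.79) stood further from 0 than before, as Cox5a did. Wild-type replicate 1 was the highest wild-type library for 35 of 46 genes of complexes II to V, against 39.6% of all genes tested. Replicate 3 was the lowest for 40 of them, against 36.1%.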

How the data were processed

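Bulk RNA sequencing libraries of whole testis, 3 wild type and 3 KIFC1 knockout, were analysed. Whole-number counts for each gene were deposited by the authors without normalization, in a separate file for every sample. The submitters' processing notes name Trimmomatic, HISAT2, HTSeq and the build mm10. The sources used give no versions, annotation release, strand setting or rule for multiply mapped reads, so reads of overlapping genes or near-identical copies cannot be told apart. Of the 38 members, 19 overlap another gene and 13 overlap a tested one. Symbols, coordinates, exon lengths and GC content came from GENCODE M21 on GRCm38, which matched 51633 identifiers and left 193 unmatched.

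All samples entered the quasi-likelihood test of edgeR (version 4.0.16, under R 4.3.3) after TMM scaling and filtering by filterByExpr, and p-values were adjusted by Benjamini-Hochberg over all 21518 genes tested, two-sided, with a threshold of 0.05. Log2 fold changes give knockout relative to wild type. Libraries of a group differed by more than sampling noise (chi-square over degrees of freedom 15.4 to 135). GC and length trends were splines with 5 degrees of freedom, fitted per library to 12707 genes with mean log2 CPM above 2 and entered as offsets. Alternatives were DESeq2 1.42.0, other scalings and filters, a replicate block, these offsets and leaving out each sample. The fit was tested on simulated data.

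Values in every sample are given for the core subunits, the 4 lowest and 4 highest members by fold change, Ndufab1, the Ndufa4 genes and the members moved most by the offsets. Any other member was picked with its values in view, and levels per length cover the 3 highest and 3 lowest. The values of 1 member are not reported here and its points are left out of the plots of single members, while counts and medians over the members include it. Of each other list, up to 4 called genes of smallest p are named. The members and lists were chosen with earlier results of these data known. Samples with the same replicate number did not deviate together (correlations -0.29 to -0.056 over 3 pairs), so the numbers were not treated as pairs.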

Additional observations from a re-analysis of the deposited data

How the results depend on the processing

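Over all genes, 1770 were called, 11 members among them, with 28 calls in the other respiratory chain lists. Without the expression filter these counts were 1010, 6 and 17, with the replicate block 21, 0 and 0, with GC and length offsets 17, 0 and 1, and with block and offsets together 5, 0 and 0. DESeq2 called 3305 genes, 13 of them members. Leaving out 1 sample gave 1 to 3149 calls over all genes, 0 to 16 members lower and 0 to 36 calls in the lists. With offsets, an addition made after seeing the data, the same omissions gave 0 to 2917, 0 to 16 and 0 to 39. The median log2 fold change of the members was -0.70 to -0.40 over these omissions, and -0.64 to -0.33 with offsets, among them -0.34 without wild-type replicate 1 and -0.41 without knockout replicate 3. The median wild-type level of 39.3 CPM per kb became 49.7 with the longest transcript and 58.8 with the principal transcript, and ran from 34.8 to 40.9 without 1 wild-type sample. The cause of these shifts was not tested. No value changed sign among called results. For members taken singly, 60 of the recomputed fold changes moved by more than the spread and 510 did not. With 3 samples a group, differences near the spread between libraries could not be resolved.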

Other observations

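Some rows of the tables bear names related to the complex I genes but lie outside the membership. Ndufb1-ps, annotated as non-coding although named after a membrane arm subunit, had 44.6, 29.0 and 29.8 CPM in wild type and 15.1, 28.9 and 18.2 CPM in knockout (log2 fold change -0.73, SE 0.27, edgeR adjusted p = 0.127). Ndufb4c, a processed copy of Ndufb4, had 10.5, 6.97 and 6.15 CPM in wild type and 2.99, 4.14 and 3.94 CPM in knockout (-1.10, SE 0.27, edgeR adjusted p = 0.0416). With GC and length trends removed it stood at -0.94 and was not called (edgeR adjusted p = 0.0726). Its groups did not overlap, and because the sequence resembles Ndufb4 the share of reads that belongs to either is uncertain. Ndufa11b, a copy of Ndufa11, had 3.05, 1.60 and 1.68 CPM in wild type and 1.11, 2.04 and 1.31 CPM in knockout, with overlap. Ndufs6b with 3 to 13 counts per library and Ndufab1-ps with 0 to 14 counts per library were too low to be tested.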
